A study of Homo sapiens with 9 samples.

Results

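CD2, CD4, CD5, CD6, CD7, CD8A, CD34, CD44, CXCR4 and CCR9 encode 10 surface proteins by which the stages of human thymocytes are sorted. They were taken as a named list, 10 of the 20037 protein-coding genes on chromosomes 1 to 22, X and Y in the RefSeq table for GRCh38. For each gene, every called peak that overlapped the gene body or the 50 kb to each side of it (its window) was collected from 9 ChIP-seq libraries and from 2 further deposited lists. ChIP-seq sequences the DNA that an antibody recovers from fixed and sheared chromatin, and a peak is a stretch where the recovered DNA exceeded the background estimate of the peak caller.

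All libraries were made from RPMI-8402, a human T-cell acute lymphoblastic leukaemia line. Antibody ab76013 against NKX2-1 (TTF1), a homeodomain transcription factor, was used in 8 of them. The clones C12, C15, S04 and S36, which the series design text describes as NKX2-1 knockouts, gave 4 of the 8, and the wild-type (WT) clones WT10, WT13, WT28, WT30 gave the others. The remaining library used an antibody against H3K27ac, the acetylated lysine 27 of histone H3, which marks active promoters and enhancers. It had no replicate, its genotype field read NKX2-1 as that of the knockout clones did, and no clone was named for it, so the genotype behind the H3K27ac values cannot be told from the labels. Each clone gave 1 library, so any p-value over the 8 libraries measures the spread between clones and libraries together.

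Progenitors that seed the thymus carry CD34 and CD44 and gain CD7 early, followed by CD2, CD5 and CD6 as they commit to the T lineage. They later carry both co-receptors, CD4 and CD8, and keep only CD4 or CD8 after selection. The chemokine receptors CXCR4 and CCR9 hold and guide these cells within the thymus. T-cell leukaemias are grouped by the same proteins, since the malignant cells usually keep the surface pattern of the stage at which they stopped. None of the files measures RNA or protein, so the values below describe chromatin at these genes and not their expression.

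The NKX2-1 antibody libraries held 742 to 1144 peaks each and the H3K27ac library 9857. The knockout clone S36 and the WT clone WT10 stood apart from the other NKX2-1 antibody libraries, with a peak in the windows of 3.19% and 2.98% of protein-coding genes against 0.599% to 1.44% in the other 6. The labelled cell type was checked with H3K27ac peaks in lineage marker genes and the 1 kb beside them, where 23.7% of all protein-coding genes held a peak. Of the 9 T-lineage markers that could be matched, 7 held one, among them CD3D, CD3E, CD3G, LCK and BCL11B, while CD2 and CD7 held none. None of the 7 B-lineage, 7 myeloid, 5 erythroid or megakaryocyte and 3 stromal markers held one. Among the epithelial, lung and thyroid markers, TG had 9 peaks, and EPCAM, KRT8, SFTPB and SFTPC had none.

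H3K27ac peaks were called in the windows of 8 of the 10 genes, against 44.8% of all protein-coding genes, a share that would give 4.48 genes among 10. The windows covered 1273 kb and held 37 peaks, of which 18 (48.6%) belonged to CD34. CD44 followed with 5 peaks, CXCR4 and CD4 had 4 each, CD5 had 3, CD6, CD7 and CCR9 had 1 each, and CD2 and CD8A had none. Their median was 2 peaks per window, or 1.61 per 100 kb, while the median over all protein-coding genes was 0. Without CD34 the median of the remaining genes was 1. A peak overlapped the gene itself at CD34, CD44, CXCR4, CD5 and CD6, 5 of 10 against 21.2% of all protein-coding genes. The other 5 had no peak nearest to them. The peaks in the windows of CD4, CD7 and CCR9, 6 of the 37, lay in or nearest to another protein-coding gene. Having no peak was common in this library: 11058 of the 20037 protein-coding genes had none in the window. With its depth unknown and no replicate, weaker acetylation may have gone undetected and is not shown to be absent.

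**Figure D1:**
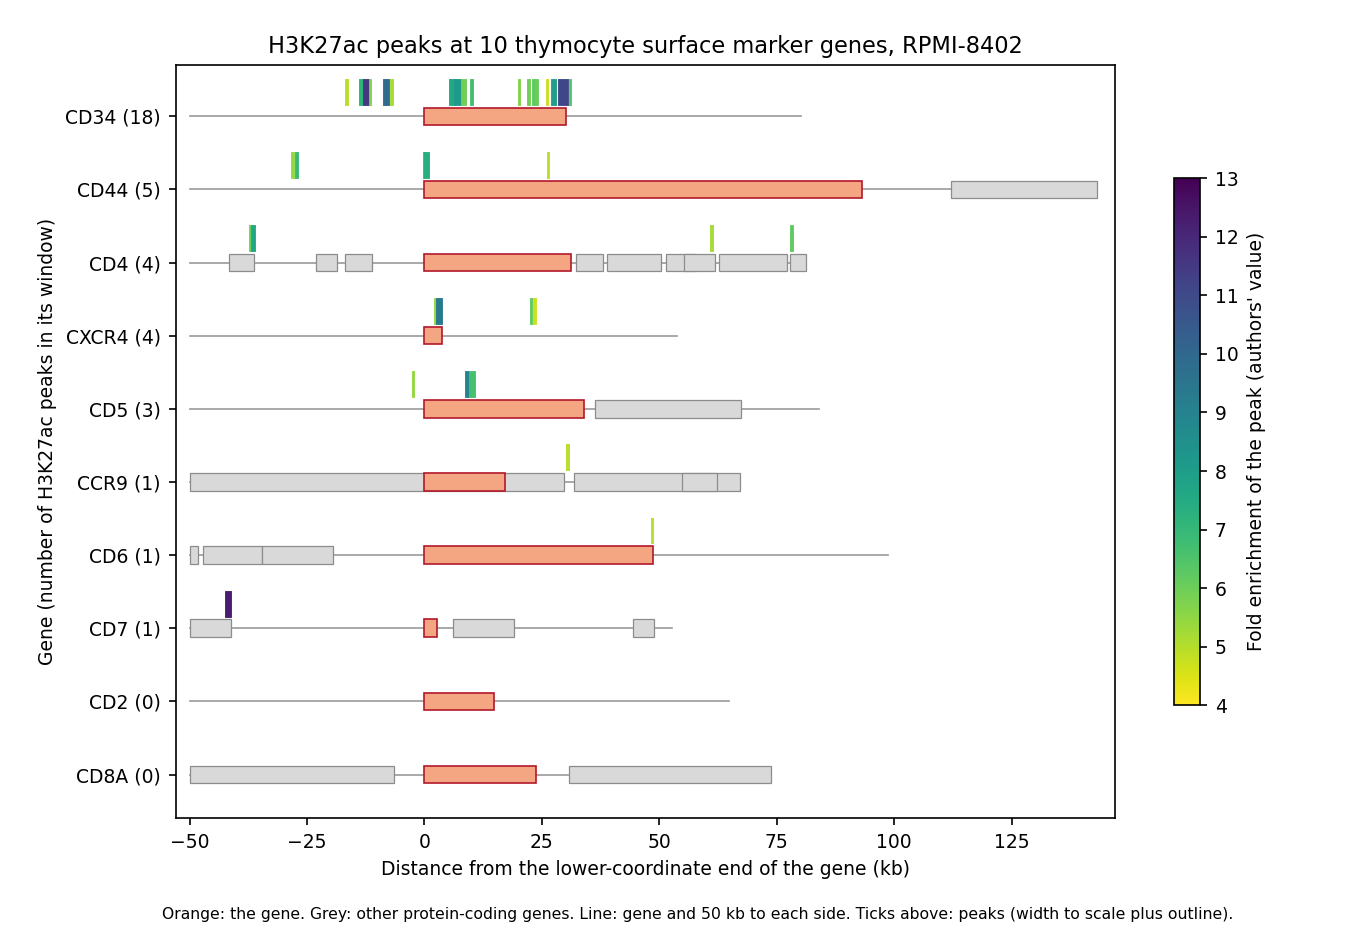
H3K27ac peaks in the windows of the 10 genes, by distance in kb from the lower-coordinate end of each gene. Orange boxes are the 10 genes, grey boxes other protein-coding genes, and ticks are peaks coloured by the authors' fold enrichment. CD34 carries 18 ticks in and beside the gene, the 4 ticks of CD4 lie over or at the end of grey boxes, and CD2 and CD8A carry none.

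The median fold enrichment, the authors' value for the height of a peak over its background, was 6.19 for the 37 peaks and 6.19 over all 9857. It ranged from 4.72 to 12.3 against 3.74 to 27.7 in the whole list. The median width was 466 bp against 391 bp. CD34, with the most peaks, had a median fold enrichment of 6.31, close to both.

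Sequence just before the gene start was examined for the 6 genes with an entry in the RefSeq promoter table (GRCh38.p14): CD2, CD8A, CD34, CD44, CXCR4 and CCR9. CD34, CD44 and CXCR4 had an H3K27ac peak over a start, 3 of these 6 genes against 6.69% of the 15842 genes in that table. The 250 bases before the start are shown for these 3 and, for contrast, for CD2 and CD8A, whose windows held no peak. Each reads 5′ to 3′ on the strand of its gene, and capitals mark matches on either strand to the motif letters named afterwards. CD34 (chr1:207911126-207911375, minus strand) lay wholly within an H3K27ac peak, and CD44 (chr11:35138921-35139170, plus strand) had 191 of its 250 bases in one. For CXCR4 the outermost of 3 starts is shown (chr2:136118150-136118399, minus strand), which lay 151 bp beyond the edge of a peak that covered the next start inside the gene. CD2 (chr1:116754180-116754429, plus strand) and the outermost of 4 CD8A starts (chr2:86808397-86808646, minus strand) had no base in a peak.
CD34: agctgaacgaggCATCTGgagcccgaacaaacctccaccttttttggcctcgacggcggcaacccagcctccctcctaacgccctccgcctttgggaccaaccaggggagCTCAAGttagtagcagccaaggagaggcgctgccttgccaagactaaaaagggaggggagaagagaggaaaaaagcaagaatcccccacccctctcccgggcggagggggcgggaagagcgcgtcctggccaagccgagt
CD44: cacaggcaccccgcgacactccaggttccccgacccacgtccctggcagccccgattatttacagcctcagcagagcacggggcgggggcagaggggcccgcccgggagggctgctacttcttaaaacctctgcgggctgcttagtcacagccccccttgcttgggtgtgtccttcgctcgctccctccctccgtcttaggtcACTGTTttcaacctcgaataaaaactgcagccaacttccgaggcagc
CXCR4: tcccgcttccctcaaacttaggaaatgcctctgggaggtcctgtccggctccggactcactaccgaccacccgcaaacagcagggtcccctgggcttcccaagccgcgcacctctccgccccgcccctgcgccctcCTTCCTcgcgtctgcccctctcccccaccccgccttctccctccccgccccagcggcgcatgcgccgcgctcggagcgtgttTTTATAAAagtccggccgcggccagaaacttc
CD2: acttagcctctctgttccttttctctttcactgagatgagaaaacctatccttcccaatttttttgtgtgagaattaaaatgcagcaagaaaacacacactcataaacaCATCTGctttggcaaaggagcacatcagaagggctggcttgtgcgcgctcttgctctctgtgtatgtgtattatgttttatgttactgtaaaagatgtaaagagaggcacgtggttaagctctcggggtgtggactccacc
CD8A: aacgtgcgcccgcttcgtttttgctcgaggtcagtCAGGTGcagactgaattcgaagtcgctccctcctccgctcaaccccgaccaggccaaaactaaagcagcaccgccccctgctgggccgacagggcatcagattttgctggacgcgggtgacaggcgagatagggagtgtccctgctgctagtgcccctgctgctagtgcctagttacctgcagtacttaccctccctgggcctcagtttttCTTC
The capitals of CD34 are an E-box match 238 bp and the letters CTCAAG, the core taken for NKX2-1, 140 bp before the start. In CD44 they are a MYB match 47 bp before the start, and in CXCR4 an ETS match 114 bp before it and overlapping TATA box letters on the 2 strands, 32 and 30 bp before it. CD2 has an E-box match 141 bp before its start, and CD8A has one 215 bp before its start. An ETS match of CD8A begins 4 bp before the start and runs past the bases shown.

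The letters of 8 motifs were sought on both strands in windows from 250 bp before to 50 bp after each start, 12 windows for the 6 genes and 22175 in the whole table. Matches were counted separately for each motif, also where they overlapped. CTCAAG, for NKX2-1, occurred in 1 of the 12 windows, that of CD34, and in 11.3% of all windows. TGTGGT, for RUNX factors, occurred in none of the 12 and in 11.3% of all. AGATAA, for GATA factors, occurred in none of the 12 and in 7.91% of all. The E-box letters CAGNTG occurred in 7 of the 12 and in 47.5% of all. AGGAAG, for ETS factors, occurred in 4 of the 12 and in 33.5% of all, and AACNGT, for MYB, in 3 and in 19.5%. The TATA box letters TATAAA occurred in 2 and in 9.47%, and CTTTGA, for TCF factors, in 1 and in 11%. These matches describe letters in a window and show no binding. The 300-base window of CD2 was the poorest in G and C among the 5 shown, at 42.3%, with 4 CpG dinucleotides. The other windows shown held 57.0% (16 CpG) for CD8A, 61.7% (19 CpG) for CD34, 63.3% (18 CpG) for CD44 and 66.7% (27 CpG) for CXCR4. The CXCR4 start that a peak covered, not shown, held 53.7% (14 CpG), and the median of all windows was 62.3% and 21 CpG. Among the windows named, those with and without a peak overlapped in these values. Over the whole table the median was 64.3% and 26 CpG for windows with an H3K27ac peak, and 62% and 20 CpG for those without.

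CD34, a sialomucin of haematopoietic stem and progenitor cells that is lost as thymocytes mature, carried 18 H3K27ac peaks, more than any other gene of the list. The gene lies on the minus strand at chr1:207880972-207911125 and was the only protein-coding gene in its window. Its peaks covered 12452 bp, or 9.57% of the window, at a density of 13.8 per 100 kb. As many peaks or more were found in the windows of 47 of 20037 genes, CD34 included (0.235%), and as many acetylated bases or more in 87 (0.434%). These are ranks within 1 library, with no replicate.

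The CD34 peaks fell into 3 groups separated by gaps of 12079 and 9697 bp, while the median gap between neighbouring peaks was 578 bp. The group at the start held the widest peak of the locus, chr1:207909633-207911454, which spans 1822 bp, covers the gene start and had a fold enrichment of 11.1 with a −log10 q of 13.9. A peak of 378 bp lay 742 bp upstream of the gene with a fold enrichment of 6.43, and 6 more followed within the gene. Both the start peak and the upstream peak overlapped LOC107985253, a long non-coding RNA gene at chr1:207910368-207917115, so the mark there cannot be assigned to CD34 alone.

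The second group held 4 peaks inside the gene between chr1:207886345-207887391 and chr1:207890871-207891351. Its highest member, chr1:207887448-207888817, was 1370 bp wide with a fold enrichment of 8.14. The third group held 6 peaks past the 3′ end of the gene, 6707 to 16308 bp from it. Here lay the highest peak of the locus, chr1:207868070-207869160, with a fold enrichment of 11.6 and a −log10 q of 15.5, and chr1:207872289-207873441 reached 9.87. The highest peak past the 3′ end was thus about as high as the peak over the start. The lowest of the 18, chr1:207907075-207907279 inside the gene, had a fold enrichment of 4.73.

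**Figure D2:**
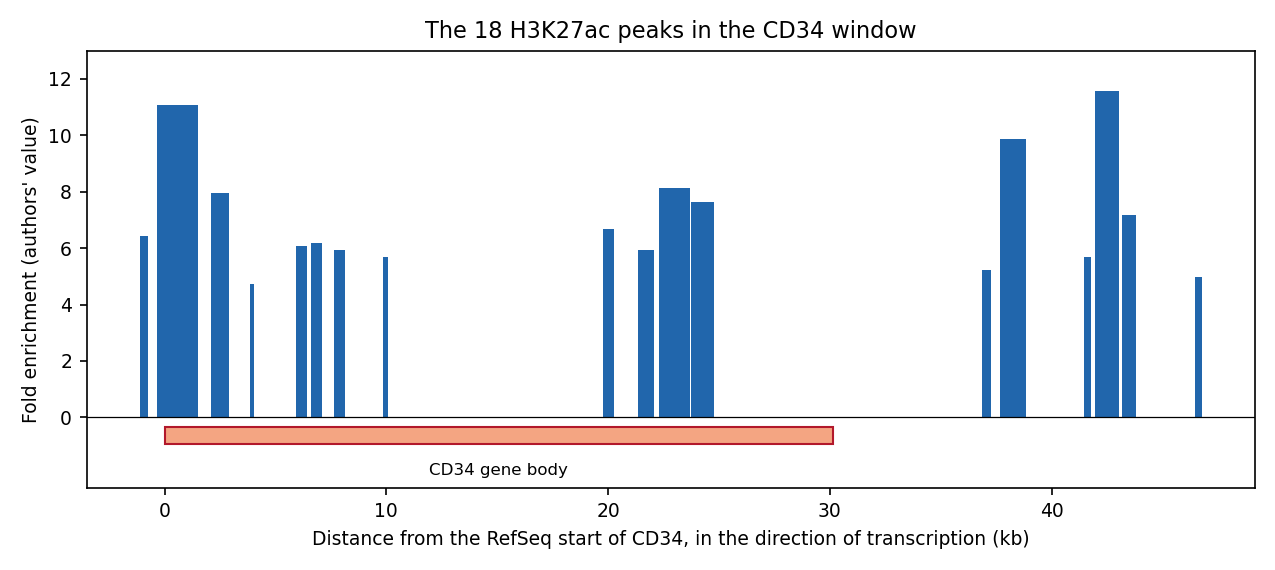
The 18 H3K27ac peaks in the CD34 window, by distance in kb from the RefSeq gene start in the direction of transcription (horizontal) and the authors' fold enrichment (vertical). Bar widths are peak widths. The tallest bars are the peak over the start (11.1) and a peak past the 3′ end (11.6), and 2 long stretches without a peak separate 3 groups.

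Joining H3K27ac peaks less than 12.5 kb apart, a distance chosen after the data were seen, gave 5140 domains, of which 3159 consisted of 1 peak. All 18 CD34 peaks fell into 1 domain of 47882 bp, chr1:207864363-207912244. With this domain included, 12 of the 5140 had as many peaks or more and 6 were as long or longer. The domain rests on many weak peaks: 8 of the 18 had a −log10 q of 5 or more and 3 of 10 or more. When only peaks of 5 or more were joined, the CD34 domain held 3. The domain of 18 also depends on the joining distance, which just exceeds its longest gap of 12079 bp. Joined across up to 10 kb, the CD34 domain held 12 peaks, and across up to 15 kb it held 18. No ranks are given for these distances, so the ranks above hold for 12.5 kb alone.

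**Figure D3:**
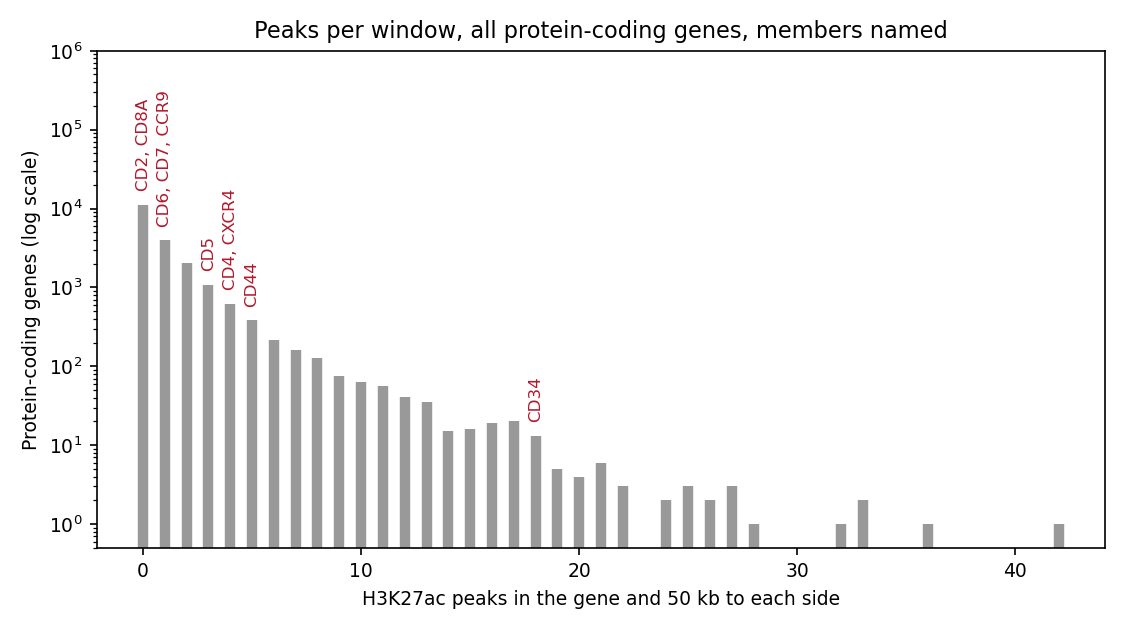
Number of protein-coding genes (log scale) by the number of H3K27ac peaks in the gene and 50 kb to each side, with the 10 genes named above the column they belong to. CD34 stands at 18 peaks, in the tail that holds 47 of 20037 genes, and the other 9 stand at 0 to 5.

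CD44, the hyaluronan receptor and adhesion molecule of thymic progenitors and of memory T cells, had 5 H3K27ac peaks, 3 overlapping the gene (chr11:35139171-35232402, plus strand) and 2 upstream of it. A peak of 324 bp, chr11:35138980-35139303, covered the start with a fold enrichment of 6.92, and chr11:35139369-35140195 followed 198 bp inside the gene at 7.41, the highest of the 5. The third peak in the gene, chr11:35165496-35165735, was the lowest at 4.97. The upstream pair, chr11:35111023-35111307 at 5.45 and chr11:35111760-35112303 at 6.92, lay 27864 and 26868 bp before the gene with no other protein-coding gene nearer. As many peaks or more were found at 1272 genes (6.35%).

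CXCR4, the receptor for CXCL12 that keeps early thymocytes in the outer cortex, had 4 peaks around a short gene (chr2:136114349-136118149, minus strand) with no other protein-coding gene in the window. The highest, chr2:136117083-136117998, was 916 bp wide with a fold enrichment of 9.36 and a −log10 q of 10.7. It covered 1 of the 3 annotated starts, at position 136117869, and chr2:136116561-136116828 at 5.45 lay 326 bp from the innermost start. The other pair lay upstream of the gene, chr2:136137069-136137333 at 18920 bp with a fold enrichment of 6.19 and chr2:136137659-136138059 at 19510 bp with 4.72, the lowest of the 37 peaks. CXCR4 and CD44 thus each had a peak over a start and a pair upstream of the gene, and CD44 had a further peak deep inside the gene that CXCR4 lacked. As many peaks or more as at CXCR4 were found at 1895 genes (9.46%).

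CCR9, the receptor for CCL25 made by thymic and gut epithelium, had 1 peak in its window and none in the gene (chr3:45886064-45903174, plus strand). That peak, chr3:45916445-45916798, had a fold enrichment of 4.97 and lay 13271 bp past the gene. It was only 721 bp from the higher-coordinate end of LZTFL1 (chr3:45823316-45915724), which spans the whole CCR9 gene, and lay between LZTFL1 and FYCO1. CXCR6, another chemokine receptor gene in the window, had no peak. For the 2 chemokine receptors of the list, peaks over the gene were thus called at CXCR4 and not at CCR9.

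CD5 and CD6, related scavenger-receptor-type proteins that restrain signalling by the T-cell receptor, are neighbours on chromosome 11. Their windows overlap, but they shared no peak. CD5 (chr11:61093963-61127852) had 3 peaks. The highest, chr11:61102718-61103503, had a fold enrichment of 8.92 and a −log10 q of 10.3, and chr11:61103697-61104717 beside it reached 6.67 over 1021 bp. Both lay inside the gene, the first of them 8755 bp from its lower-coordinate end. The lowest, chr11:61091455-61091719 at 5.45, lay 2244 bp outside that end and within LOC105369325, a long non-coding RNA gene. CD6 (chr11:60971680-61020377) had 1 peak, chr11:61020171-61020370, which was 200 bp wide at a fold enrichment of 4.97 and lay at the higher-coordinate end of the gene.

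CD7 and CD2 are among the earliest T-lineage surface proteins, CD7 an immunoglobulin-family receptor and CD2 an adhesion receptor for CD58. Neither gene had a called H3K27ac peak in or nearest to it, which does not show that acetylation was absent. The CD7 window (gene at chr17:82314873-82317608) held the highest of the 37 peaks, chr17:82272568-82273645, 1078 bp wide with a fold enrichment of 12.3 and a −log10 q of 17.2. It lay inside CSNK1D, which encodes a casein kinase, 41228 bp from CD7. SECTM1, which encodes a CD7 ligand, and TEX19 lay in the same window with no peak. The nearest peak to CD2 (chr1:116754430-116769229) was 290189 bp away, at chr1:117059418-117059700 with a fold enrichment of 8.14, and lay 626 bp from TTF2.

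CD4 and CD8A encode the co-receptors that bind class II and class I molecules of the major histocompatibility complex. Neither had a peak in the gene. The CD4 window (gene at chr12:6789528-6820799) held 4 peaks, all overlapping other genes. Of these, chr12:6752422-6752625 at 5.94 lay in MLF2, and chr12:6752826-6753355 at 7.65, the highest, crossed the higher-coordinate end of MLF2. The lowest, chr12:6850557-6850849 at 5.21, lay in CDCA3, and chr12:6867604-6867994 at 6.19 lay in the glycolytic gene TPI1. The nearest was 29758 bp from CD4, and LAG3, a CD4-related receptor gene in the window, had none. CD8A (chr2:86784605-86808396) had no peak in its window, nor did CD8B, its partner chain, have one in the gene. The nearest, chr2:86720490-86720906 at 6.68, lay 63699 bp from CD8A in RMND5A. A count of peaks by window would thus place CD4 level with CXCR4, while inside the gene CD4 had 0 peaks and CXCR4 had 2.

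Within 1 kb of either gene end, a measure that needs no strand and covers all 10 genes, H3K27ac peaks were called at CD6, CD34, CD44 and CXCR4. That is 4 of 10 against 19.0% of all protein-coding genes. CD5 was not among them, since its nearest peaks lay farther than 1 kb from both ends.

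The NKX2-1 antibody was used to locate binding sites of the factor, with the knockout clones as the comparison; peak lists hold no measure of NKX2-1 RNA or protein, so the knockout itself was not checked. No peak of any of the 8 antibody libraries lay in the window of any of the 10 genes. Over all protein-coding genes 5.61% had such a peak, which would give 0.561 genes among 10, so a count of 0 lies near the background. The 4 WT libraries gave 0 of 10 genes against 3.38% of all, and the 4 knockout libraries 0 of 10 against 3.39%. The authors' combined NKX2-1 list of 209 peaks gave 0 of 10 against 1.68%, and their WT-only list of 496 regions 0 of 10 against 2.40%. For 10 genes drawn independently, a count of 0 would allow a share of up to about 30%, counting error alone considered. These genes were chosen by name, and the windows of CD5 and CD6 overlap, so this limit is only a rough guide. The depth behind these lists is unknown, so weak binding at these genes may have gone undetected and is not shown to be absent.

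Two-sided Fisher's exact tests on the number of WT and knockout libraries with a peak in each window gave p = 1 for each of the 10 genes. Over all 20037 protein-coding genes 0 (0%) had a Benjamini-Hochberg adjusted p under 0.05, and 24 had an unadjusted p under 0.05. Those 24 comprised 13 genes called in 4 WT and 0 knockout libraries and 11 called in 0 and 4. With 4 clones a side the smallest p this exact test allows is 0.0286, which cannot pass the adjustment over so many genes.

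The nearest NKX2-1 antibody peaks lay outside every window, and their distances are given as a description. CD4 came closest. A peak lay 99.8 kb from it in S36 (chr12:6689322-6689720, fold enrichment 9.17), where it overlapped ZNF384, and 99.9 kb from it in C12, S04 and WT10. In C15 the nearest lay at 452.0 kb, in WT28 at 1964 kb, and in WT13 and WT30 at 4533 kb. The region 99.8 to 99.9 kb from CD4 was thus called in 3 knockout clones and 1 WT clone.

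For CD7 the nearest peak lay 113.7 kb away in WT10 and in WT28, in CCDC57 (chr17:82200941-82201194 in WT10, fold enrichment 5.90), and this region is on the authors' WT-only list. It lay at 133.0 kb in S36, and at 268.6 to 268.8 kb in the other 3 knockout clones, WT13 and WT30. The WT and knockout values overlap.

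For CD2 the nearest peak lay 239 kb away in S36, WT10 and WT28. In S36 it was chr1:116515177-116515411 with a fold enrichment of 4.94, and in all 3 libraries it lay inside CD58, the gene of the CD2 ligand. It lay at 1206 kb in WT30, 2904 kb in S04 and 5693 kb in C12, C15 and WT13. These weak peaks at CD58 were called in clones of both genotypes.

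CCR9 and CD44 each had a nearest peak called in WT10 alone. That of CCR9 lay 195.2 kb away (chr3:46098419-46098663, fold enrichment 6.33), 12575 bp from the chemokine receptor gene XCR1, while the other WT libraries had theirs at 6818 to 29766 kb and the knockout libraries at 2869 to 45354 kb. That of CD44 lay 488.3 kb away in the epithelial ETS gene EHF (chr11:34650467-34650863, fold enrichment 6.45), against 17475 to 18754 kb in the other 7 libraries. The EHF region overlapped a peak of the combined list, chr11:34650557-34650832, with a fold enrichment of 2.79 there. Both regions are on the WT-only list, and both rest on the library with the most peaks.

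CD8A differed from the rest in that all 8 libraries placed the nearest peak at the same site, 1016 kb away in RGPD2. Its fold enrichment ran from 8.32 to 30.9, values that come from separately called lists and are not compared between clones. This site, 1016 kb from CD8A, was thus called in the 4 knockout clones as in the 4 WT clones. RGPD2 belongs to a family of near-identical copies, between which reads can be hard to place.

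The other 4 genes had no peak within 1 Mb in any library. CD34 had its nearest at 1299 kb in the knockout clone S36. The CTCAAG letters that stand before its start occurred in 11.3% of all promoter windows searched. CXCR4 had its nearest at 3846 kb in WT28, and CD5 and CD6 had theirs at 4370 and 4477 kb in WT10, at 1 site. The median distance from the 10 genes to the nearest peak was 752 to 7046 kb by library, and over all protein-coding genes 2091 to 11055 kb. The shortest medians over all genes were those of WT10 (2091 kb) and S36 (2242 kb), the libraries with the most peaks.

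**Figure D4:**
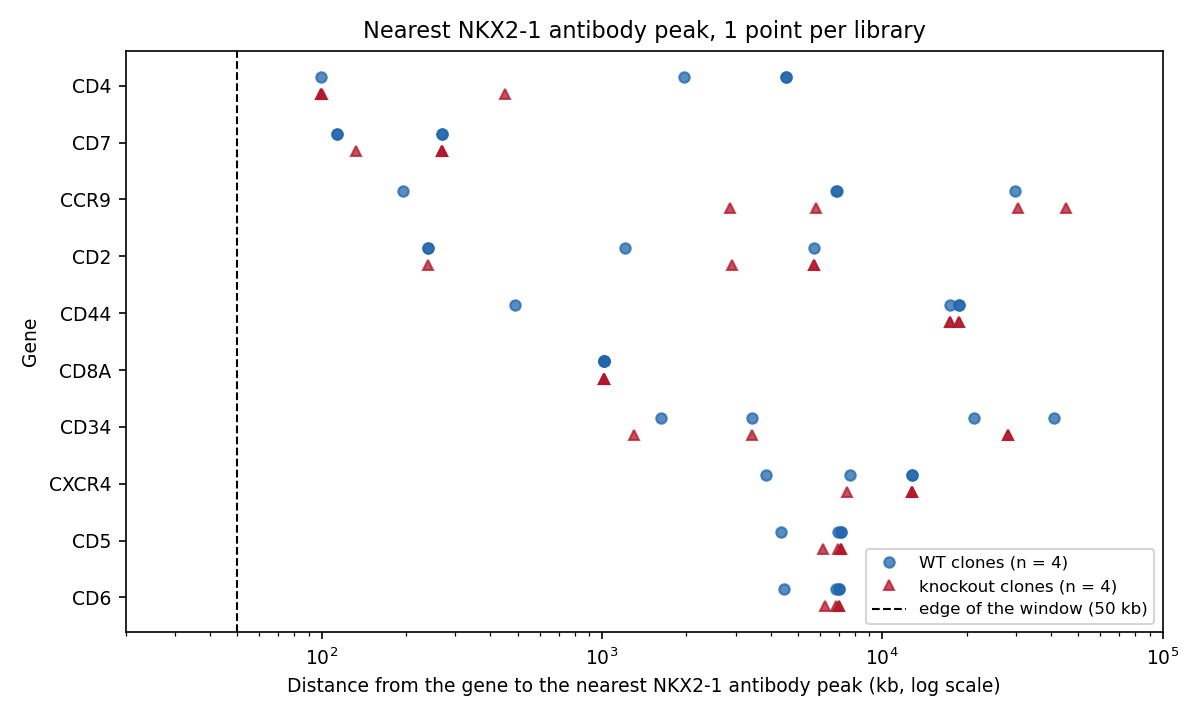
Distance in kb (log scale) from each of the 10 genes to the nearest NKX2-1 antibody peak, 1 point per library. Circles are the 4 WT clones, triangles the 4 knockout clones, and the dashed line the edge of the 50 kb window. Every point lies to the right of the line, CD4 comes closest at 99.8 kb, and the points of CD8A coincide at 1016 kb.

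A list of 45 other genes of thymocyte stages, homing and adhesion served as a comparison, all of them found in the table. An H3K27ac peak lay in the window of 18 (40.0%) and none in that of 27, a median of 0 peaks, and none had as many as CD34. The 5 with the most were the tetraspanin gene CD82 with 11, CD99 with 10, the kinase gene LCK with 8, and CD52 and the integrin gene ITGAE with 7 each. ALCAM, CCL25, CCR4, CD1A and CD1B, the first by name of those without, had none. CD34 thus had 13.8 peaks per 100 kb against 7.05 for CD82, the highest of these 45 genes.

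**Figure D5:**
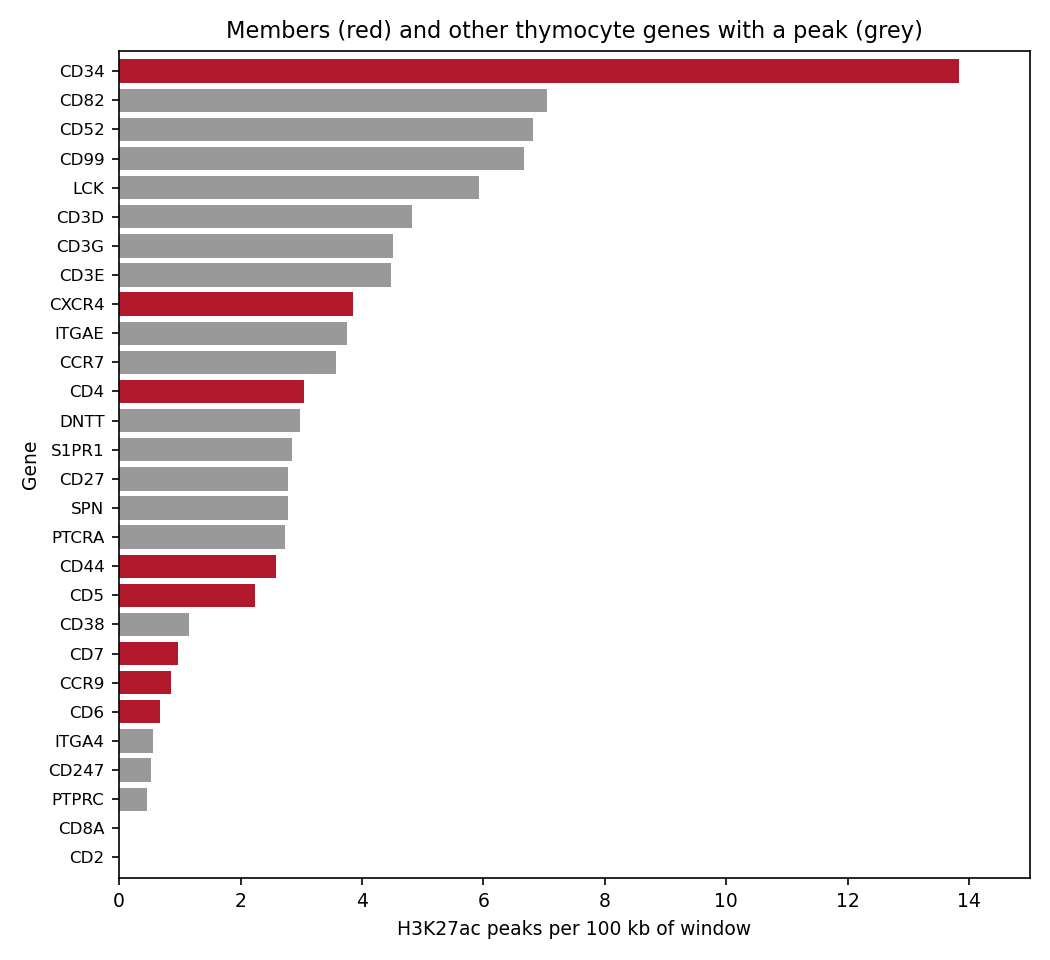
H3K27ac peaks per 100 kb of window for the 10 genes (red) and for the 18 of 45 other thymocyte genes with a peak (grey). CD34 reaches 13.8 and CD82 7.05, and CD2 and CD8A are at 0.

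An NKX2-1 antibody peak lay in the windows of 5 of these 45 genes and of 0 of the 10, against 5.61% of all protein-coding genes, a share that would give 2.52 among 45. The difference between the lists was not tested. CD99 was called in WT10 at a fold enrichment of 8.01, in WT28 at 9.10, in WT30 at 6.13 and in no knockout clone. The CD99 peak also stood on the combined list (chrX:2707517-2707821, 6.09) and overlapped an H3K27ac peak. Its two-sided Fisher's exact test gave p = 0.143, with a Benjamini-Hochberg adjusted p of 1. CD99 lies in the pseudoautosomal region shared by X and Y, and how the authors' alignment treated the copy on Y was not given in the sources used here. CD58 was called in WT10, WT28 and S36, ITGAE in WT10 alone, and CCR7 and LCK in S36 alone.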

How the data were processed

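ChIP-seq peak lists were analysed for 9 RPMI-8402 libraries: 8 with the NKX2-1 antibody (4 WT and 4 knockout clones) and 1 with the H3K27ac antibody. The authors deposited 1 narrowPeak list per library, a combined NKX2-1 list and a WT-only list that holds positions alone. In these lists the authors gave each peak a fold enrichment (a ratio over the background estimate) and a −log10 q. Per the submitters' processing notes, FastQC, Bowtie2, SAMtools, MACS2 and deepTools were used with build hg38. For their versions and parameters, for the control behind the peaks and for the making of the combined and WT-only lists, nothing is given in the sources used here. Depth is unknown, so no interval from reads was possible.

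Peaks were joined to RefSeq GRCh38 gene bodies with 50 kb to each side by an overlap of at least 1 bp, in Python 3.11.15 with NumPy 2.4.6 and SciPy 1.17.1; figures were drawn with matplotlib 3.10.9. The join was tested on simulated data. Libraries with a peak were compared between WT and knockout clones by two-sided Fisher's exact tests over all 20037 protein-coding genes with Benjamini-Hochberg adjustment. The single H3K27ac library allowed no test.

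The genes, the comparison list and the marker lists were chosen with earlier results of these data known. Named besides the 10 genes were those under peaks in their windows, and, of the comparison list, the 5 with the most H3K27ac peaks, the 5 without any that come first by name and each with an NKX2-1 antibody peak. Genes nearest to peaks outside the windows, window neighbours without a peak and the marker examples were named after their values were seen. The result for 1 gene of the marker lists is not reported here. A search for genes called in the same libraries was void, since none of the 10 genes was called. Alternatives varied the window, the q threshold, the overlap rule, the joining distance of the CD34 domain and the clones included.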

Additional observations from a re-analysis of the deposited data

Results flagged for a closer look

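The 20 groups of 4 distances, from each of the 10 genes to the nearest NKX2-1 antibody peak in the clones of 1 genotype, and the 2 groups of 4 shares of gene windows with a peak were examined for a library far from the other 3 of its group, by Dixon's ratio. It was passed in 7 of these 22 groups, where chance passes about 1 in 20 independent groups. These groups share the same 8 libraries and are not independent, so the count cannot be judged against that rate. Values that are distances to 1 shared site repeat exactly, which makes the ratio large.

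Among the WT clones all 3 such values came from WT10. It had its nearest peak to CD5 at 4370 kb, against 6935 to 7107 kb in the other WT clones. For CD6 its value was 4477 kb against 6813 to 6984 kb, from the same peak, so these are 1 observation. For CD44 it was 488 kb against 17475 to 18754 kb.

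Among the knockout clones S36 gave 3 of the 4. It had a peak in 3.19% of protein-coding gene windows against 0.843% to 1.13% in the other knockout clones. Its nearest peak to CD7 lay at 133 kb against 268.6 to 268.8 kb, and its nearest to CXCR4 at 7478 kb against 12763.5 kb in each of the others. C15 had its nearest peak to CD4 at 452.0 kb, where C12, S04 and S36 had theirs at 99.8 to 99.9 kb.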

How the results depend on the processing

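The count of 0 genes with an adjusted p under 0.05 by Fisher's exact test was also 0 under each alternative, which says nothing about stability, since the smallest possible p could not pass the adjustment. Leaving out a clone could likewise not raise the count of 0 genes with an NKX2-1 antibody peak. With 100 kb to each side, 1 of the 10 genes (CD4) had an NKX2-1 antibody peak, called in C12, S04, S36 and WT10. It lay 99808 to 99936 bp away, just inside the edge of that window. The share of all protein-coding genes with such a peak at 100 kb is not given here. The 8 genes with an H3K27ac peak became 5 with the gene body only, where 21.2% of all protein-coding genes had a peak. The count was 5 with 10 kb to each side and 4 at a −log10 q of 10 or more. It was also 5 where peaks had to lie nearest to the gene itself. For these further settings no share of all genes is given here, so the fall cannot be set against a background. The median of 2 H3K27ac peaks per window became 0.5 with 10 kb, 4 with 100 kb, 1 at a −log10 q of 5, 0 at 10, and 1 without CD34. The 18 other thymocyte genes with a peak became 7 at a −log10 q of 10. The 18 peaks of the CD34 domain became 3 at a −log10 q of 5 and 1 at 10. They became 12 when peaks were joined across up to 10 kb. The nearest-gene, without-CD34 and CD34 domain alternatives were chosen after the data were seen. No paired analysis was possible because the WT and knockout clones share no replicate numbers.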

Other observations

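Among the 45 comparison genes, those of immature thymocytes differed from each other in H3K27ac, and the share with a peak over the whole list (40.0%) was below the 44.8% of all protein-coding genes. CD3D, CD3E and CD3G, chains of the T-cell receptor complex that stand side by side, had the same 5 peaks in their windows, with the highest at a fold enrichment of 11.8. DNTT, the polymerase that adds bases at receptor gene junctions in immature thymocytes, had 4 peaks in its window. PTCRA, the pre-T-cell receptor alpha chain of the same stage, had 3, none of them in the gene. RAG1 and RAG2, the recombinase genes of the same stage, CD1A to CD1E, CD8B and IL7R had none. ITGA4 and S1PR1, an integrin chain and a receptor for exit from the thymus, each had a peak over the start, as LCK did. They were 3 of the 35 comparison genes with a promoter entry (8.57%), near the 6.69% of all genes in that table. These examples were chosen after their values were seen.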
